A study of Mus musculus with 20 samples.

Results

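The genes examined here are 43 genes of DNA replication, nucleotide synthesis, replication-coupled chromatin assembly and entry into S phase. They were chosen by symbol, with earlier results of these data known. Each of the 43 has at least 1 probe on the array, 38 were detected on enough arrays to be tested (a detection p under 0.01 on at least 5 of 20 arrays), and they stand among 12921 genes and unnamed probes tested. RNA came from the left ventricle, with the infarct left out, of C57BL/6J mice aged 12 to 15 weeks, taken 3 days after surgery. The groups, of 5 mice each, were females after coronary artery ligation (female MI), females after a sham operation (female sham), males after ligation (male MI) and males after a sham operation (male sham). The labels give no transgene, drug or pooling, and each array is 1 mouse. The series asks how gene expression after infarction relates to the survival of female mice; survival was not analysed here.

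Before a cell copies its genome, the origin recognition complex, Cdc6 and Cdt1 load the MCM helicase ring onto origins. Cdc45 and the GINS complex then complete the helicase, primase and polymerases start and extend the strands, the sliding clamp loaded by replication factor C holds the polymerases in place, and flap endonuclease and ligase join the lagging strand. Thymidylate synthase, ribonucleotide reductase and thymidine kinase supply deoxynucleotides, and chromatin assembly factors and DNA methylation maintenance proteins restore chromatin behind the fork. Transcription of many of these genes is driven by E2F factors at the boundary of G1 and S phase. Adult cardiomyocytes rarely divide, while leukocytes, fibroblasts and endothelial cells in the injured heart can. The tissue is bulk ventricle, so a higher level can come from more cells of a type or from more RNA per cell, and these cannot be told apart.

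Promoter letters are given first because E2F binding sites are the feature for which promoters of this gene class are known. RefSeq promoter windows (mouse build GRCm38.p6, from 250 bases before to 50 after each start) were found for 35 of the 43 genes, as 42 windows of 300 bases. Mcm4, Gins1, Gins2, Gins4, Pole, Rfc2, Tipin and Ccne2 had no entry. The letters TTTCCCGC, TTTGGCGC, TTTCGCGC or TTTGCCGC, called E2F type here, were searched on both strands. At least 1 of them stood in the windows of 16 of the 35 genes (45.7%), against 704 of all 27025 genes with a window (2.6%). The windows shown are those of the 4 MCM subunits with more than 1 match in the full window, of Cdc6 and Uhrf1 with 1 match each, and of Tyms with none. Each runs from 190 bases before to 30 after the start, 5′ to 3′ on the gene's strand, with the E2F-type letters in capitals.
Mcm3 (chr1:20820283-20820502, minus strand): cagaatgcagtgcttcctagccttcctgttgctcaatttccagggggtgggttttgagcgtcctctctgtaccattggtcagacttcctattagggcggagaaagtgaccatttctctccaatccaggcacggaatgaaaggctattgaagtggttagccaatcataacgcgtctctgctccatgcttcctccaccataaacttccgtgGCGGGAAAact
Mcm5 (chr8:75109319-75109538, plus strand): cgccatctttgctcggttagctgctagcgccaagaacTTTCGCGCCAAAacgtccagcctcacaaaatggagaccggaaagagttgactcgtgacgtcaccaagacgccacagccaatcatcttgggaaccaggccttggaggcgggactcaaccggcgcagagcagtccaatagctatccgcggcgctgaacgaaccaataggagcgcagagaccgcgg
Mcm6 (chr1:128359676-128359895, minus strand): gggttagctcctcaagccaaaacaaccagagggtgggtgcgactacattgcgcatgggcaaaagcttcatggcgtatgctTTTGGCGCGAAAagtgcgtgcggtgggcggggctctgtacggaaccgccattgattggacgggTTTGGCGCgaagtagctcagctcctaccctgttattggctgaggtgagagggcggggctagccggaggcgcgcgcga
Mcm7 (chr5:138171854-138172073, minus strand): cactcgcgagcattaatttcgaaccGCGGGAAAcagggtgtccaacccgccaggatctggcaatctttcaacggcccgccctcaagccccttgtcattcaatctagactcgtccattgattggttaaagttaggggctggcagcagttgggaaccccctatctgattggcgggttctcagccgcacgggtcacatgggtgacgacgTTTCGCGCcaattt
Cdc6 (chr11:98907961-98908180, plus strand): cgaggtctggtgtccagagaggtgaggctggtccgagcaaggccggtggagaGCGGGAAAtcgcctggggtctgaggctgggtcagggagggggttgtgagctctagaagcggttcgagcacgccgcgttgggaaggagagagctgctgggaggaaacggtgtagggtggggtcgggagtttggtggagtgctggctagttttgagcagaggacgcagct
Uhrf1 (chr17:56304123-56304342, plus strand): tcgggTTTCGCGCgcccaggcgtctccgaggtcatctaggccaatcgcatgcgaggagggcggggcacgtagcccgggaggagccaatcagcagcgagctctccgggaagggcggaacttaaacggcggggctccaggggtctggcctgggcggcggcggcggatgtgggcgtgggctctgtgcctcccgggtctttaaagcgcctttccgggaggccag
Tyms (chr5:30073596-30073815, minus strand): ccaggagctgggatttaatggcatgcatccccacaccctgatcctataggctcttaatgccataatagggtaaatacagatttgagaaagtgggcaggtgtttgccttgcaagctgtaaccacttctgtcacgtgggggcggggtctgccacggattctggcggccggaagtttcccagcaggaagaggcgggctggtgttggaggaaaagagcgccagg

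In Mcm5, and in the upstream pair of Mcm6, matches on opposite strands share letters and read as 1 block, and another match of Mcm6 lies closer to the start. The second match of Mcm3 lies past the letters shown. The CCAAT box stood in the windows of 21 of the 35 genes (60%), against 41.1% of all genes, and the letters TTTGAA or TTCGAA, which resemble the CHR element of mitotic genes, in 7 (20%), against 21.7% of all genes. Of the 23 genes with a window that rose after MI in both sexes, 10 held an E2F-type match (43.5%). Of the 5 with a window that passed the test in neither sex, 1 did (Pold1), and of the 5 genes below the detection filter, 4 did. Uhrf1 and Tyms, which had the largest rises of the tested genes in both sexes, differ in this respect, with a match in the window of Uhrf1 and none in that of Tyms. A match is a run of letters and not a measured binding site.

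**Figure D1:**
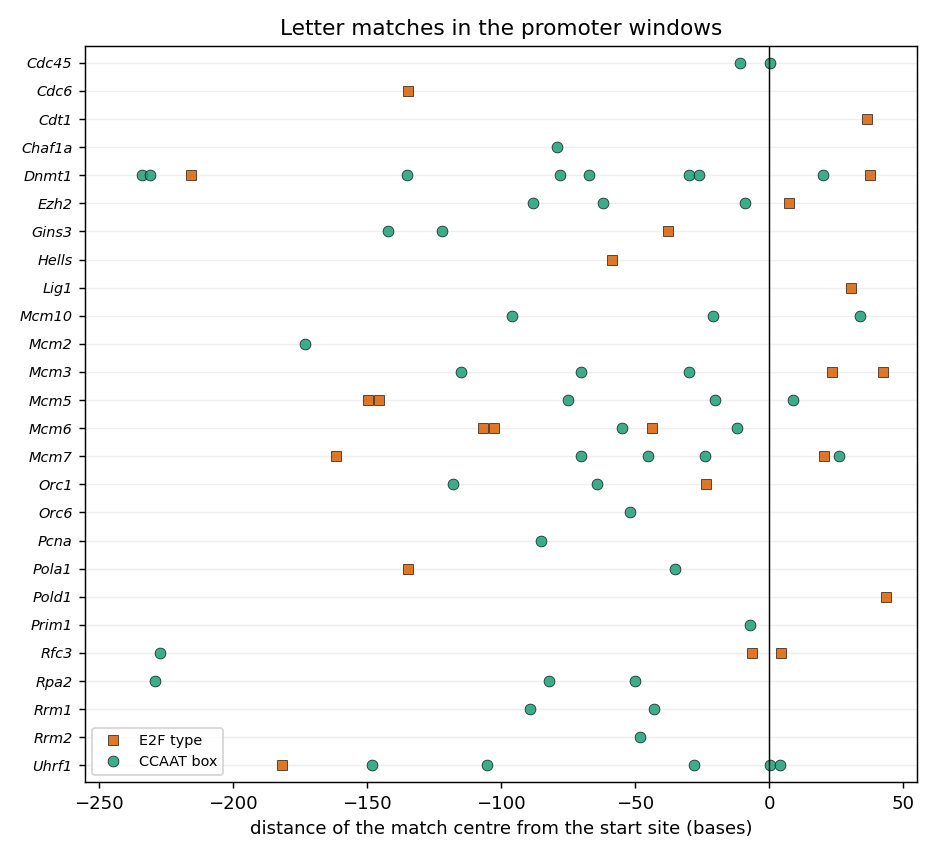
Position of E2F-type letters (squares) and CCAAT boxes (circles) in the promoter windows of the genes that hold either, with the distance of the match centre from the start site in bases on the horizontal axis. Of the 23 E2F-type matches, 14 lie wholly before the start and 9 after it, and Mcm6 holds 3.

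After MI the replication genes rose together in both sexes. Of the 38 tested, 33 rose in females and 28 in males, 0 fell in either sex, and the 28 that rose in males all rose in females too (limma's moderated test, adjusted by the Benjamini-Hochberg method over all genes tested, called at an adjusted p under 0.05, 5 mice per group). Over all genes tested the same test called 16.5% higher and 16.3% lower in females, and 9.77% higher and 8.59% lower in males. The 38 were chosen with earlier results of these data known, so their count is not a blind test against these shares. At an unadjusted p under 0.05, 34 of the 38 were higher and 0 lower in females, where 20% of all genes were higher and 22.5% lower. In males 30 were higher and 1, Dut, lower, where 14.9% of all genes were higher and 17.4% lower. The median log2 difference over the 38 was 0.95 in females (1.93-fold) and 0.77 in males (1.71-fold), where the median over all genes was -0.05 and -0.04. Rises of at least 2-fold were called for 17 genes in females and 14 in males, against 4.33% and 2.25% of all genes. Of the 38, 6 (Mcm10, Rrm2, Gins2, Gins3, Ccne1 and Ccne2) were detected on fewer than 5 sham arrays and reached the detection filter through MI arrays, so their selection favours a higher level after MI. Of the other 32, 27 rose in females and 24 in males and 0 fell, where the same filter gave 14.5% and 8.47% of 11982 genes higher. Every MI array lay above every sham array for 24 of the 38 in females, 28 in males and 23 in both, and over all genes tested this held for 8.11% in females and 9.71% in males.

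**Figure D2:**
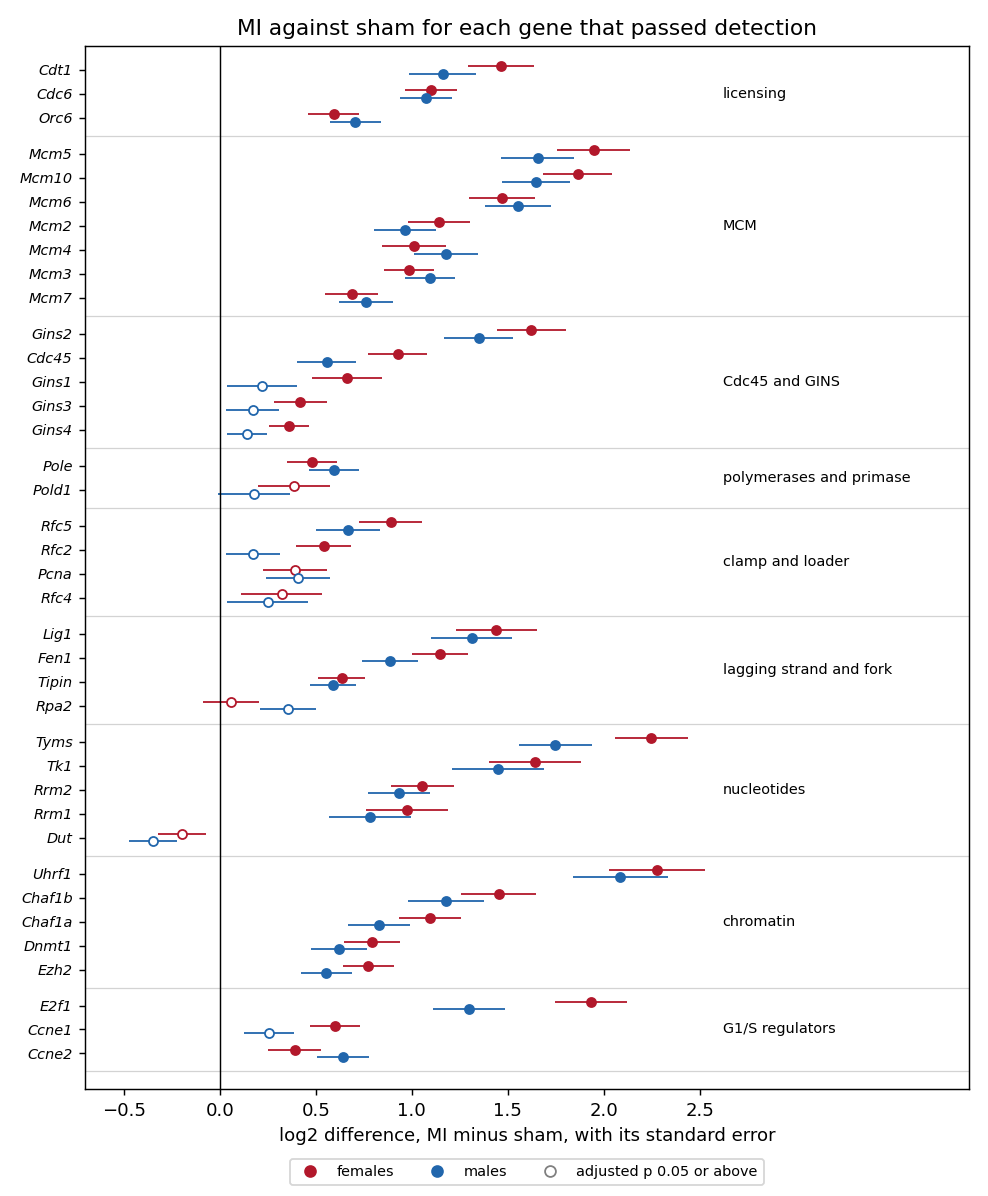
Log2 difference of MI minus sham for the 38 genes tested, with its standard error, in females (red) and males (blue), grouped by role; open points did not pass the test. Uhrf1 and Tyms lie farthest to the right, the MCM genes lie between 0.69 and 1.95, and Dut is the 1 gene left of 0 in both sexes.

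On the level of whole arrays, the mean of the 38 genes, each centred on its own mean over the 20 arrays, was 0.577 ± 0.23 in female MI and -0.413 ± 0.161 in female sham (log2, SD, n = 5 each). It was 0.335 ± 0.16 in male MI and -0.499 ± 0.101 in male sham. The lowest MI array, female MI 3 at 0.17, still lay above the highest sham array, female sham 4 at -0.191. Within their groups 2 MI arrays stood apart in opposite directions. Male MI 3 had the highest value of the male MI arrays for 29 of the 38 genes and in 9 of 9 role groups, and female MI 3 had the lowest of the female MI arrays for 32 genes and in 9 of 9 role groups. Without female MI 3, 34 genes rose in females with a median of 1.04, and without male MI 3, 28 rose in males with a median of 0.71. Of all 12921 genes tested, 2292 were called higher in females without female MI 3, against 2126 with every array. In males 1024 were called higher without male MI 3, against 1263.

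**Figure D3:**
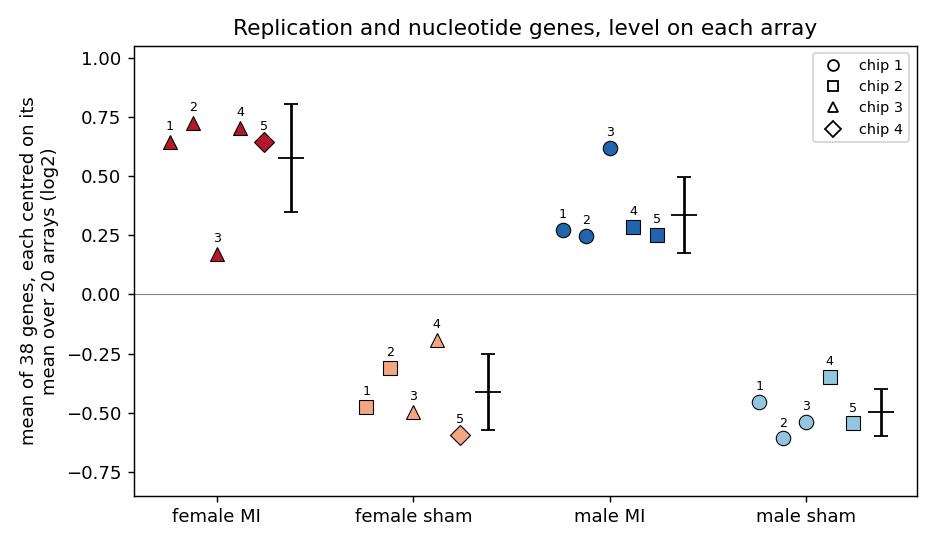
Mean level of the 38 tested genes on each array (log2, each gene centred on its mean over 20 arrays), with the mouse number above each point, the chip as the symbol, and the group mean with its SD beside the points. The MI arrays lie between 0.17 and 0.724 and the sham arrays between -0.608 and -0.191.

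The values that follow are normalised log2 intensities of 1 probe per gene, given for mice 1 to 5 of each group, and an intensity of 1 probe is not comparable with that of another. Of the 4 licensing genes, Cdc6, Cdt1 and Orc6 were tested and all 3 rose in both sexes. Cdc6, the ATPase that helps the origin recognition complex load MCM, read 5.94, 6.27, 5.70, 5.89 and 6.25 in female MI hearts, against 5.00, 4.74, 4.83, 5.29 and 4.68 in female sham hearts. In males Cdc6 read 5.72, 5.68, 6.10, 5.85 and 5.86 in male MI hearts, against 4.69, 4.79, 4.49, 4.96 and 4.91 in male sham hearts. Every MI array was above every sham array in both sexes, and Cdc6 rose by 1.10 ± 0.14 (log2, SE), or 2.15-fold (adjusted p = 5.78e-06), in females and by 1.07 ± 0.14 (log2, SE), or 2.10-fold (adjusted p = 2.41e-05), in males. Cdt1, the loading factor that is destroyed once S phase begins, read 7.09, 7.26, 6.48, 7.38 and 7.38 in female MI hearts, against 5.44, 5.68, 5.69, 6.03 and 5.44 in female sham hearts. It read 6.76, 6.71, 7.13, 6.46 and 6.52 in male MI hearts, against 5.81, 5.38, 5.19, 5.74 and 5.63 in male sham hearts. The groups did not overlap, with the lowest MI reading of each sex (female MI 3 and male MI 4) still above the highest sham reading. Cdt1 rose by 1.47 ± 0.17 (log2, SE), or 2.76-fold (adjusted p = 3.85e-06), in females and by 1.16 ± 0.17 (log2, SE), or 2.24-fold (adjusted p = 0.000137), in males. Orc6, a subunit of the origin recognition complex, rose 1.51-fold (adjusted p = 0.00184) in females and 1.63-fold (adjusted p = 0.00103) in males. Orc1, its largest subunit, was detected on 0 of 20 arrays and was not tested.

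All 7 MCM genes rose in both sexes. Mcm2 to Mcm7 encode the subunits of the helicase ring, and Mcm10 encodes a separate factor that helps the assembled helicase to start. Mcm10 had the smallest p of the group in both sexes and read 7.0, 6.95, 6.20, 6.81 and 6.84 in female MI hearts, against 4.76, 4.81, 4.86, 5.28 and 4.76 in female sham hearts. In males it read 6.40, 5.92, 6.92, 6.40 and 5.91 in male MI hearts, against 4.48, 4.75, 4.75, 4.84 and 4.50 in male sham hearts. The MI arrays did not overlap the sham arrays of the same sex, with at least 0.92 between the nearest arrays in females and 1.07 in males, with female MI 3 lowest among the female MI arrays and female sham 4 highest among the female sham arrays. Mcm10 rose by 1.86 ± 0.18 (log2, SE), or 3.64-fold (adjusted p = 4.3e-07), in females and by 1.65 ± 0.18 (log2, SE), or 3.13-fold (adjusted p = 9.98e-06), in males, and its probe was detected on 2 of 5 female sham and 1 of 5 male sham arrays. A second Mcm10 probe, detected on 6 of 20 arrays, gave 0.65 in females (adjusted p = 0.00064) and 0.50 in males (adjusted p = 0.00954). Within the ring the rises were unequal. Mcm5 rose 3.86-fold (adjusted p = 4.88e-07) in females and 3.15-fold (adjusted p = 1.18e-05) in males, and Mcm6 rose 2.77-fold (adjusted p = 3.76e-06) and 2.93-fold (adjusted p = 1.1e-05). Mcm2 rose 2.21-fold in females and 1.95-fold in males, Mcm3 1.98-fold and 2.14-fold, and Mcm4 2.02-fold and 2.26-fold, with adjusted p between 1.18e-05 and 0.000364. Mcm7 had the smallest rise of the ring, 1.61-fold (adjusted p = 0.000851) in females and 1.70-fold (adjusted p = 0.000833) in males. Mcm4 was the 1 MCM gene whose female groups overlapped, because female sham 4 read 9.15 while female MI 3 read 9.10. These folds are ratios of 1 probe each, and the difference between MCM genes was not tested.

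Cdc45 and the 4 GINS genes encode the parts that join the MCM ring to form the working helicase. All 5 rose in females, and Cdc45 and Gins2 rose in males. Gins2 read 6.36, 6.55, 5.65, 6.68 and 6.34 in female MI hearts, against 4.66, 4.57, 4.66, 5.18 and 4.40 in female sham hearts. Its male values were 5.73, 6.00, 6.28, 6.20 and 5.79 in male MI hearts, against 4.71, 4.41, 4.40, 4.89 and 4.85 in male sham hearts. No MI array overlapped a sham array in either sex. The Gins2 probe was detected on 1 of 5 sham arrays of each sex, so most sham readings are not above background and the differences rest on them. Gins2 rose by 1.62 ± 0.18 (log2, SE), or 3.08-fold (adjusted p = 1.88e-06), in females and by 1.35 ± 0.18 (log2, SE), or 2.55-fold (adjusted p = 3.92e-05), in males. Its 2 dimmer probes, tested on their own, rose as well, by 1.38 and 1.48 on the log2 scale in females and by 1.12 and 1.04 in males. Cdc45 rose 1.90-fold (adjusted p = 0.000125) in females and 1.47-fold (adjusted p = 0.016) in males. Gins1, Gins3 and Gins4 rose 1.58-fold, 1.34-fold and 1.28-fold in females (adjusted p = 0.00795, 0.0232 and 0.0109). Their male differences were 0.22, 0.17 and 0.14 on the log2 scale (adjusted p = 0.433, 0.413 and 0.361), and the MI and sham values overlapped in both sexes. The test of the difference between the sexes was not passed by any of these 3 genes (adjusted p = 0.616, 0.707 and 0.666). The female call of Gins3 was lost when female MI 1, female MI 2 or female sham 5 was left out (adjusted p = 0.0538, 0.0597 and 0.0788).

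Of the 4 polymerase and primase genes, 2 were tested, Pole rose in both sexes and Pold1 passed in neither. Pola1, the catalytic subunit of the priming polymerase, and Prim1, the primase itself, were detected on 0 of 20 arrays. Pole, the catalytic subunit of the leading strand polymerase, read 5.44, 5.31, 5.16, 5.34 and 5.73 in female MI hearts, against 4.98, 5.11, 4.96, 4.69 and 4.84 in female sham hearts. In males Pole read 5.27, 5.46, 5.88, 5.36 and 5.24 in male MI hearts, against 5.04, 4.87, 4.54, 4.91 and 4.86 in male sham hearts. MI lay above sham without overlap in both sexes, by margins of 0.05 in females and 0.20 in males between the nearest arrays. Pole rose by 0.48 ± 0.13 (log2, SE), or 1.40-fold (adjusted p = 0.00799), in females and by 0.60 ± 0.13 (log2, SE), or 1.51-fold (adjusted p = 0.0036), in males. Pold1, the catalytic subunit of the lagging strand polymerase, read 7.64, 7.65, 7.39, 7.98 and 7.65 in female MI hearts, against 7.06, 7.82, 6.68, 7.59 and 7.21 in female sham hearts. Male Pold1 values were 7.32, 7.11, 7.96, 7.44 and 7.39 in male MI hearts, against 7.44, 7.16, 7.53, 7.29 and 6.92 in male sham hearts. The groups overlapped in both sexes, and the highest female sham array, female sham 2, lay above 4 of 5 female MI arrays. The log2 difference of Pold1 was 0.39 in females (95% interval -0.000556 to 0.78, adjusted p = 0.118) and 0.18 in males (-0.21 to 0.57, adjusted p = 0.544). Without female sham 2 the female difference was 0.52 with an adjusted p of 0.0278.

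Of the sliding clamp and its loader, Rfc5 rose in both sexes, Rfc2 rose in females, and Pcna and Rfc4 passed the test in neither sex. Rfc5, a small subunit of the loader, read 6.73, 6.79, 6.08, 7.0 and 6.97 in female MI hearts, against 5.74, 6.20, 5.35, 6.05 and 5.78 in female sham hearts. In males it read 6.41, 6.28, 6.74, 6.41 and 6.47 in male MI hearts, against 5.81, 5.72, 6.02, 5.83 and 5.58 in male sham hearts. Female MI 3 lay below female sham 2, the 1 overlap in females, and the male groups did not overlap. Rfc5 rose by 0.89 ± 0.17 (log2, SE), or 1.85-fold (adjusted p = 0.000379), in females and by 0.67 ± 0.17 (log2, SE), or 1.59-fold (adjusted p = 0.00818), in males. Pcna, the clamp and a widely used protein marker of proliferating cells, read 5.76, 5.91, 5.65, 6.04 and 6.23 in female MI hearts, against 5.48, 5.20, 5.24, 5.65 and 6.08 in female sham hearts. Male values of Pcna were 5.65, 5.27, 6.06, 5.74 and 5.52 in male MI hearts, against 5.27, 5.31, 4.90, 5.49 and 5.24 in male sham hearts. The groups overlapped in both sexes, with female sham 5 above 4 of 5 female MI arrays. The log2 difference of Pcna was 0.39 in females (95% interval 0.04 to 0.74, adjusted p = 0.0782) and 0.41 in males (0.06 to 0.75, adjusted p = 0.0956). In females the call depended on single arrays, since Pcna passed without female sham 5 (log2 0.53, adjusted p = 0.0158) and without female MI 3 (log2 0.46, adjusted p = 0.0475).

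Rfc4, another loader subunit, read 6.89, 7.09, 6.89, 6.21 and 7.55 in female MI hearts, against 6.74, 5.97, 6.65, 6.93 and 6.73 in female sham hearts. Its male values were 6.78, 6.94, 7.04, 6.91 and 6.77 in male MI hearts, against 6.68, 6.75, 5.99, 6.94 and 6.81 in male sham hearts. The lowest readings of the female MI, female sham and male sham groups were those of female MI 4, female sham 2 and male sham 3, which are the 3 arrays in the last position (F) of a chip. With group means removed, the Rfc4 probe averaged 0.78 log2 units less on these 3 arrays than on the remaining ones. The log2 difference of Rfc4 was 0.32 in females (95% interval -0.11 to 0.76, adjusted p = 0.254) and 0.25 in males (-0.19 to 0.69, adjusted p = 0.439). Without those 3 arrays it was 0.35 in females with an adjusted p of 0.0468, and a dimmer second probe of Rfc4 gave -0.01 in females and -0.19 in males (adjusted p = 0.972 and 0.328). Rfc2 rose 1.46-fold (adjusted p = 0.00586) in females, and its male difference was 0.17 on the log2 scale (adjusted p = 0.427, sex difference adjusted p = 0.61). Its 3 further probes also rose in females and did not pass in males. Rfc3 was detected on 3 of 20 arrays, 1 female MI and 2 male MI, and was not tested.

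On the lagging strand, Fen1, Lig1 and Tipin rose in both sexes and Rpa2 passed in neither. Fen1, the endonuclease that trims Okazaki fragments, read 8.65, 8.84, 8.01, 8.73 and 8.51 in female MI hearts, against 7.54, 7.49, 7.08, 7.66 and 7.23 in female sham hearts. Male Fen1 values were 8.23, 8.41, 8.74, 8.27 and 8.33 in male MI hearts, against 7.51, 7.36, 7.58, 7.64 and 7.46 in male sham hearts. Every MI array lay above every sham array in both sexes. Fen1 rose by 1.15 ± 0.14 (log2, SE), or 2.21-fold (adjusted p = 6.81e-06), in females and by 0.89 ± 0.14 (log2, SE), or 1.85-fold (adjusted p = 0.000291), in males. Lig1, the ligase that joins the fragments, read 7.63, 7.66, 7.10, 7.46 and 8.07 in female MI hearts, against 6.07, 6.68, 5.98, 6.35 and 5.65 in female sham hearts. In males Lig1 read 7.17, 6.99, 8.0, 7.38 and 7.23 in male MI hearts, against 6.29, 5.85, 5.81, 6.48 and 5.79 in male sham hearts. The groups did not overlap, and male MI 3 stood 0.62 above the next male MI array. Lig1 rose by 1.44 ± 0.21 (log2, SE), or 2.71-fold (adjusted p = 3.42e-05), in females and by 1.31 ± 0.21 (log2, SE), or 2.48-fold (adjusted p = 0.000271), in males. A dimmer second Lig1 probe, detected on 8 of 20 arrays, gave 0.79 in females (adjusted p = 0.00019) and 0.39 in males (adjusted p = 0.0519). Tipin, a part of the fork protection complex, rose 1.55-fold (adjusted p = 0.000467) in females and 1.51-fold (adjusted p = 0.0021) in males, while its dimmer second probe gave 0.28 and 0.34 on the log2 scale (adjusted p = 0.112 and 0.0743).

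Rpa2, a subunit of the complex that coats single-stranded DNA, read 6.21, 6.66, 6.48, 6.66 and 6.27 in female MI hearts, against 6.45, 6.08, 6.63, 6.64 and 6.18 in female sham hearts. The male values were 6.35, 6.51, 6.08, 6.52 and 6.35 in male MI hearts, against 5.70, 6.14, 5.74, 6.38 and 6.07 in male sham hearts. In females the MI and sham arrays covered nearly the same range, and in males male MI 3 was the lowest MI array, the reverse of its place for most of the other genes. The log2 difference of Rpa2 was 0.06 in females (95% interval -0.24 to 0.36, adjusted p = 0.787) and 0.35 in males (0.05 to 0.66, adjusted p = 0.0971). Its female sign turned under several alternatives, and its male difference passed the test without male sham 4 (log2 0.45, adjusted p = 0.0362).

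Of the nucleotide synthesis genes, Tyms, Tk1, Rrm1 and Rrm2 rose in both sexes and Dut did not. Tyms, the thymidylate synthase that makes dTMP from dUMP, read 8.85, 8.79, 7.89, 9.09 and 8.66 in female MI hearts, against 6.21, 6.58, 6.37, 6.85 and 6.03 in female sham hearts. In males Tyms read 8.07, 7.81, 8.36, 7.97 and 7.80 in male MI hearts, against 6.16, 5.90, 6.36, 6.49 and 6.36 in male sham hearts. Every MI array exceeded every sham array of its sex by at least 1.04, and female MI 3 was again the lowest female MI array. Tyms rose by 2.25 ± 0.19 (log2, SE), or 4.75-fold (adjusted p = 1.53e-07), in females and by 1.75 ± 0.19 (log2, SE), or 3.36-fold (adjusted p = 9.98e-06), in males, with rank 43 of 12921 by signed difference in females and rank 48 in males. A second Tyms probe rose by 1.62 and 1.16 on the log2 scale. Tk1, the thymidine kinase of the salvage route in S phase, rose 3.12-fold (adjusted p = 3.11e-05) in females and 2.73-fold (adjusted p = 0.000327) in males. A second Tk1 probe, detected on 5 of 20 arrays, gave 0.45 in females (adjusted p = 0.0138) and 0.16 in males (adjusted p = 0.435).

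Ribonucleotide reductase, which converts ribonucleotides to deoxyribonucleotides, has a large subunit encoded by Rrm1 and an S-phase small subunit encoded by Rrm2. Rrm1 rose 1.97-fold (adjusted p = 0.00144) in females and 1.72-fold (adjusted p = 0.0142) in males, with overlap in females alone. Rrm2 was detected on 5 of 5 female MI arrays and 2 of 5 female sham arrays, and on 5 of 5 male MI arrays and 0 of 5 male sham arrays. It rose 2.08-fold (adjusted p = 5.77e-05) in females and was at least 1.42-fold higher in males (adjusted p = 0.000538), where the sham level is only a bound. For such a bound the MI mean is divided by a sham mean in which an undetected reading is raised to the lowest signal detected on that array, unless it is already above it. An adjusted p beside a bound is that of the fit on the readings as normalised, not of the bound. Dut, the dUTPase that keeps uracil out of DNA and supplies dUMP to Tyms, read 5.80, 5.61, 5.73, 5.85 and 5.40 in female MI hearts, against 5.80, 5.91, 5.96, 5.66 and 6.04 in female sham hearts. Its male values were 5.79, 5.89, 5.80, 5.66 and 5.83 in male MI hearts, against 6.13, 6.04, 6.62, 5.80 and 6.11 in male sham hearts. The groups overlapped in both sexes, and male sham 3, a position F array, had the highest reading. The log2 difference of Dut was -0.20 in females (95% interval -0.46 to 0.06, adjusted p = 0.243) and -0.35 in males (-0.61 to -0.09, adjusted p = 0.0598). Without male sham 4 the male difference was -0.43 with an adjusted p of 0.0199.

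The 5 tested chromatin genes rose in both sexes. Uhrf1, which recognises hemimethylated DNA behind the fork and brings Dnmt1 to it, read 8.89, 9.10, 8.30, 8.62 and 9.19 in female MI hearts, against 6.32, 6.00, 6.91, 7.47 and 6.01 in female sham hearts. In males Uhrf1 read 8.35, 8.23, 9.03, 8.33 and 8.13 in male MI hearts, against 6.43, 6.02, 6.18, 6.76 and 6.25 in male sham hearts. The groups did not overlap, although the female sham arrays spread from 6.00 to 7.47 around a median of 6.32. Uhrf1 rose by 2.28 ± 0.25 (log2, SE), or 4.85-fold (adjusted p = 1.64e-06), in females and by 2.09 ± 0.25 (log2, SE), or 4.25-fold (adjusted p = 1.46e-05), in males, the largest difference of the 38 genes in each sex. Dnmt1, the maintenance DNA methyltransferase, rose 1.74-fold (adjusted p = 0.000335) in females and 1.54-fold (adjusted p = 0.00563) in males. Chaf1a and Chaf1b, subunits of the chromatin assembly factor that places histones on new DNA, rose 2.14-fold and 2.74-fold in females and 1.78-fold and 2.26-fold in males (adjusted p between 1.53e-05 and 0.00132). Ezh2, the histone H3 lysine methyltransferase of a Polycomb repressive complex, rose 1.71-fold (adjusted p = 0.000166) in females and 1.47-fold (adjusted p = 0.0063) in males. Hells, a chromatin remodeller that acts in DNA methylation, was detected on 0 of 20 arrays.

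Among the regulators of S-phase entry, E2f1 rose in both sexes, Ccne2 rose in both, and Ccne1 was called higher in females. E2f1, the transcription factor released from the retinoblastoma protein in late G1, read 7.39, 7.47, 6.80, 7.54 and 7.18 in female MI hearts, against 5.52, 5.67, 5.03, 5.67 and 4.82 in female sham hearts. Male E2f1 values were 6.77, 6.71, 7.52, 6.83 and 6.59 in male MI hearts, against 5.54, 5.39, 5.83, 5.57 and 5.58 in male sham hearts. The groups did not overlap, and male MI 3 stood 0.69 above the next male MI array. E2f1 rose by 1.93 ± 0.19 (log2, SE), or 3.82-fold (adjusted p = 4.57e-07), in females and by 1.30 ± 0.19 (log2, SE), or 2.46-fold (adjusted p = 9.07e-05), in males. Ccne1 and Ccne2 encode the E-type cyclins, which activate Cdk2. Ccne1 was detected on 3 of 5 female MI arrays, 4 of 5 male MI arrays and 0 of 5 sham arrays of either sex. Its probe thus reached the detection filter through MI arrays alone. That selection favours a higher level after MI, so the call of Ccne1 is not an independent test of a rise. It was at least 1.17-fold higher after MI in females, where the fit on the readings as normalised gave an adjusted p of 0.00133. In males Ccne1 did not pass (adjusted p = 0.176). No bound is given there, because the MI mean was not above the sham mean with undetected readings raised to the lowest detected signal. Ccne2 rose 1.31-fold (adjusted p = 0.0322) in females and was at least 1.06-fold higher in males (adjusted p = 0.00265), with 2 of 5 female sham and 0 of 5 male sham arrays detected. Ccne2 lost its female call under several alternatives, with an adjusted p of 0.131 under percentile scaling.

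**Figure D4:**
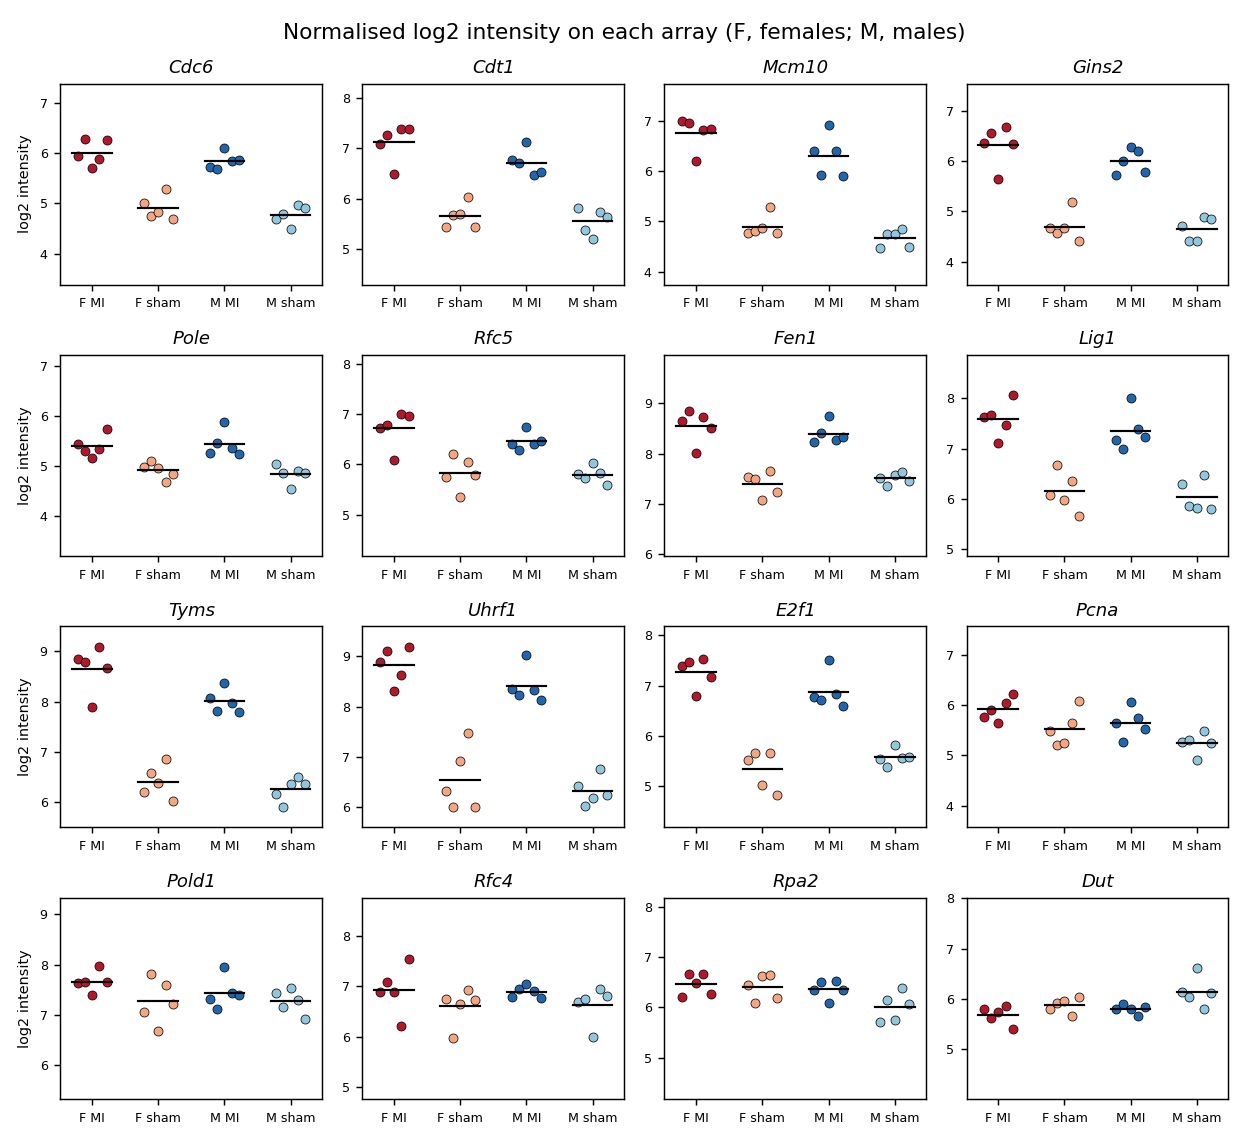
Normalised log2 intensity of 16 genes on each array, for females (F MI, F sham) and males (M MI, M sham), with the group mean as a line; each panel spans 4 log2 units. The 11 genes from Cdc6 to E2f1 rose in both sexes, and Pcna, Pold1, Rfc4, Rpa2 and Dut passed the test in neither.

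More of the replication genes were detected on MI arrays. Female MI arrays detected 36 to 38 of the 43 genes and female sham arrays 30 to 34; male MI arrays detected 37 to 39 and male sham arrays 27 to 35. Of the 38 tested genes, 10 were detected on all 5 female MI arrays without being detected on all 5 female sham arrays, and 9 in males. Among them are Mcm10, Rrm2 and Gins2 in both sexes, Gins3 in females and Ccne2 in males, which reached the detection filter through MI arrays. The same count over all genes tested was not made. The number of probes detected over the whole array ran from 17261 to 17715 in female MI and from 16888 to 18388 in female sham, and from 17297 to 18307 in male MI and from 15670 to 17204 in male sham, so male sham arrays detected fewer probes in all than male MI arrays, while the female ranges overlapped (means 17363 in female MI and 17348 in female sham). The part of detection depth in the rise of the replication genes was not tested.

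The response of females was set against that of males by the interaction of surgery and sex. By limma's moderated test 0 of the 38 genes passed for a difference in response, and 0 of the 12921 tested did (0%). At an unadjusted p under 0.05 the count was 1 of the 38 and 1091 of 12921 (8.44%). The 1 gene was E2f1, with an excess of 0.63 in females on the log2 scale (SE 0.27, adjusted p = 0.554). The signed difference, MI minus sham, was higher in females for 29 of the 38, with a median excess of 0.19 on the log2 scale (0.03 over all genes). The same count over all genes tested was not made. Genes share the same arrays, so counts over them are not independent tests, and after MI no chip held both sexes. By role it was higher in females for 5 of 5 nucleotide genes (Dut among them, at -0.20 in females and -0.35 in males), 5 of 5 chromatin genes and 5 of 5 genes of Cdc45 and GINS. It was higher for 3 of 4 genes each of the clamp and loader and of the lagging strand, 2 of 3 each of licensing and of the G1/S regulators, 1 of 2 polymerase genes and 3 of 7 MCM genes. The 5 genes called in females alone (Gins1, Gins3, Gins4, Rfc2 and Ccne1) had interaction adjusted p between 0.61 and 0.707.

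After MI 1 of the 38 genes, Ezh2, differed between females and males, and after sham surgery 0 did. Over all genes tested 0.139% were called after MI and 0.108% after sham. At an unadjusted p under 0.05, 10 of the 38 were higher and 0 lower in females after MI, against 14.9% of all genes in either direction, and 3 were higher and 1 lower after sham, against 12.7%. Ezh2 read 6.92, 6.80, 6.52, 7.09 and 6.55 in female MI hearts, against 5.86, 6.10, 5.96, 6.17 and 6.02 in male MI hearts, and the sexes did not overlap. After sham surgery Ezh2 read 5.60, 6.24, 6.17, 6.03 and 5.97 in female sham hearts, against 5.32, 5.35, 5.62, 5.73 and 5.33 in male sham hearts, and the sexes overlapped. The female minus male difference was 0.75 after MI (SE 0.13, adjusted p = 0.0139) and 0.53 after sham (SE 0.13, adjusted p = 0.138). After MI every female array was on chip 3 or 4 and every male array on chip 1 or 2, so sex and chip cannot be told apart there. With the chip as a fixed block, which is linked across the groups through the sham arrays, the MI difference was 0.52 with an adjusted p of 0.343, and within chip 2, which holds sham mice of both sexes, the sham difference was 0.39 (adjusted p = 0.915). Leaving out male MI 1, female MI 1, female MI 2 or female MI 4 also ended the call (adjusted p = 0.0563, 0.0623, 0.0533 and 0.0654), and without female MI 3 the count was 6 genes. Over all 12921 genes tested, 635 were then called, against 18 with every array.

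MI and sham were also compared within single chips. Within chip 3 (4 female MI, 2 female sham) 27 of the 38 genes rose with a median of 0.86, and within chip 1 (3 male MI, 3 male sham) 26 rose with a median of 0.87. Of all 12921 genes tested, 1418 were called higher within chip 3 and 1085 within chip 1. Within chip 2 (2 male MI, 2 male sham) the median was 0.67, 36 of the 38 were higher after MI, and 1, Uhrf1, passed the test (log2 1.73, adjusted p = 0.0446). These fits pool the spread over all arrays and test 12921 genes with as few as 2 arrays per group, and 8 of all genes tested passed within chip 2.

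**Figure D5:**
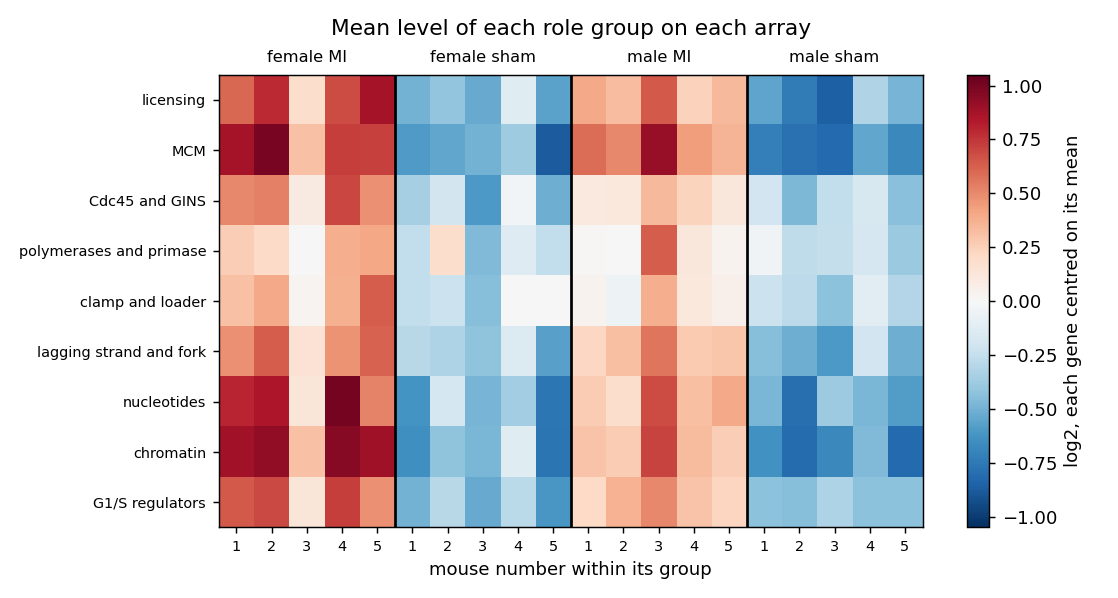
Mean log2 level of each role group on each array, with each gene centred on its mean over 20 arrays; columns are mice 1 to 5 of each group. The MCM row runs from 0.306 to 1.00 in female MI and from -0.872 to -0.374 in female sham, and the columns of female MI 3 and male MI 3 are paler and darker than the rest of their groups in 9 of 9 rows.

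For the counts of further lists below, the shares over all genes tested were 16.5% higher and 16.3% lower in females. In males they were 9.77% higher and 8.59% lower. Some genes of these lists were detected on few sham arrays and reached the detection filter through MI arrays, which favours rises in the counts. Of 36 further replication genes tested, 15 rose and 3 fell in females and 13 rose and 1 fell in males, with a median log2 difference of 0.15 and 0.20. Pclaf, a protein that binds the PCNA clamp, rose by 2.46 in females and by 2.24 in males (SE 0.21 each, adjusted p = 1.53e-07 and 2.12e-06), with its probe detected on 2 of 5 female sham and 1 of 5 male sham arrays. Dbf4, the activating subunit of the Cdc7 kinase, rose by 1.51 and 1.26 (SE 0.15 each, adjusted p = 4.34e-07 and 1.18e-05). Cdc7, the kinase itself, rose by 1.33 and 1.21, and Top2a, the topoisomerase of cycling cells, by 2.23 and 1.84 (adjusted p between 4.44e-07 and 1.96e-05). Ung, the uracil-DNA glycosylase, fell in both, by 0.73 in females and by 0.72 in males (adjusted p = 0.000344 and 0.00108), and Orc3 and Asf1a fell in females, by 0.31 and 0.79 (adjusted p = 0.0277 and 0.000171). Of 34 further genes of nucleotide synthesis and salvage, 11 rose and 6 fell in females and 8 rose and 4 fell in males (median 0.09 and 0.12). Nme1, a nucleoside diphosphate kinase, rose by 1.27 and 0.72 (adjusted p = 8.55e-06 and 0.0045), Mthfd2, a mitochondrial folate enzyme, by 1.37 and 0.66 (6.61e-05 and 0.0354) and Hprt, the purine salvage enzyme, by 0.24 and 0.42 (0.045 and 0.00313). Rrm2b, the small reductase subunit used outside S phase, fell by 0.52 in females and by 0.34 in males (adjusted p = 0.000396 and 0.0212), whereas Rrm2 rose in both.

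Most mitotic genes rose in the same comparisons. Of 26 tested, 22 rose and 2 fell in females and 20 rose and 0 fell in males, with medians of 1.59 and 1.16 on the log2 scale. Cdc25b, Cdc25c, Kif11, Tpx2, Ndc80, Smc4 and Aurkb were detected on fewer than 5 sham arrays and reached the detection filter through MI arrays. Their selection favours a higher level after MI, and no count without them was made. The falls in females were those of Cenpf (by 0.47, adjusted p = 0.00183) and Pttg1 (by 0.63, adjusted p = 0.00191). Cdk1, the mitotic kinase, rose by 2.53 and 2.06, and Aurkb, the kinase of the chromosomal passenger complex, by 1.80 and 1.41 (adjusted p between 1.76e-07 and 1.46e-05). The Aurkb probe was detected on 2 of 5 female sham and 1 of 5 male sham arrays. Of 27 regulators of G1 phase and the E2F-Rb pathway, 11 rose and 4 fell in females and 7 rose and 3 fell in males (median 0.26 and 0.15). Mybl2, a MYB family factor of cycling cells, was detected on 5 of 5 MI arrays of each sex and on 0 of 5 sham arrays of each sex. It reached the detection filter through MI arrays alone, so no fold or p is given, although it stands in the counts. E2f2 rose by 1.45 and 1.19 (adjusted p = 2.11e-05 and 0.000438), with 3 of 5 female sham and 1 of 5 male sham arrays detected, while Cdkn1c, an inhibitor of cyclin-dependent kinases, fell by 1.07 and 1.06 (adjusted p = 9.9e-05 and 0.000339). Of 19 further chromatin genes linked to replication, 4 rose and 2 fell in each sex, with medians of -0.01 in females and 0.01 in males. Over all genes tested 16.5% rose and 16.3% fell in females, and 9.77% rose and 8.59% fell in males. Lmnb1, lamin B1, rose by 1.67 and 1.51 and H2az1, a histone H2A variant, by 0.93 and 0.80 (adjusted p between 3.85e-06 and 7.45e-05).

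Most macrophage, monocyte and neutrophil markers rose in the same comparisons. Beside the counts of markers stand the shares over all genes tested, 16.5% higher and 16.3% lower in females and 9.77% higher and 8.59% lower in males. Of 9 macrophage and monocyte markers tested, 8 rose in females and 5 in males, and 0 fell. Their summed normalised intensity on the linear scale ran from 4841 to 9647 in female MI and from 2598 to 4310 in female sham, and from 5192 to 6739 in male MI and from 2791 to 3697 in male sham. Of 7 neutrophil markers, 6 rose in each sex, with sums of 1719 to 3482 in female MI and 613.7 to 2454 in female sham, and of 2000 to 2906 in male MI and 380.4 to 2467 in male sham. Among these calls, the neutrophil marker Cxcr2 was detected on 0 of 5 sham arrays of each sex. The macrophage and monocyte marker Ccr2 was detected on 1 of 5 female sham and 0 of 5 male sham arrays. Both reached the detection filter through MI arrays, so their selection favours a higher level after MI. Of 7 fibroblast markers, 2 rose in females and 3 in males. Of 6 endothelial markers 1 (Vwf) fell in females, and of 4 smooth muscle and pericyte markers 2 (Myh11 and Rgs5) fell in females. The 7 cardiomyocyte markers, which mark the labelled tissue, were detected on every array. Of them 1 (Tnni3) fell in females, and their sums ran from 43310 to 52550 in female MI, from 41390 to 55170 in female sham, from 49520 to 52320 in male MI and from 43310 to 53450 in male sham. The 4 T and B cell markers on the array (Cd3e, Cd3g, Cd2 and Ms4a1) did not pass the detection filter (0 of 4). Of 2 erythroid markers, 1 (Alas2) fell in each sex.

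The levels of these lists are given here on the arrays that stood apart. Female MI 3, the lowest of its group for the replication genes (0.17), was also the lowest for mitotic genes (0.26), macrophage markers (0.03) and neutrophil markers (0.10), on the same centred log2 scale. The other 4 female MI arrays ran from 0.77 to 1.14 for mitotic genes, from 0.32 to 0.62 for macrophage markers and from 0.55 to 1.12 for neutrophil markers. Male MI 3, the highest of its group for the replication genes (0.62), was the highest for mitotic genes (0.79) and the second for macrophage markers (0.40) and neutrophil markers (0.65), behind male MI 5 (0.50 and 0.84). For fibroblast markers female MI 3 was likewise the lowest (0.27, the others 0.34 to 0.56) and male MI 3 the highest of its group (0.42, the others 0.24 to 0.30). For cardiomyocyte markers female MI 3 was the highest of its group (0.14, the others -0.69 to -0.02, with the lowest value on the position F array, female MI 4). Among sham arrays, female sham 4 had the highest replication level (-0.19) together with the highest mitotic (-0.26) and macrophage (-0.03) levels of its group. Female sham 2 was highest for neutrophil markers (0.05) and female sham 3 for fibroblast markers (0.26). Male sham 4 was highest of its group for replication genes (-0.35) and fibroblast markers (-0.11). The highest male sham levels were those of male sham 3 for mitotic genes (-0.50), male sham 5 for macrophage markers (-0.22) and male sham 1 for neutrophil markers (-0.20). The part of these cell types in the rise of the replication genes was not tested.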

How the data were processed

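RNA was measured on Illumina BeadChips (scanner not given in the sources used here) with biotin-labelled cRNA, 1 array per mouse, 20 arrays on 4 chips. The authors deposited a linear bead intensity for each probe, not scaled between arrays as its values show, with a detection p-value beside it, per the file headers. A second deposited table holds log2 values with nearly identical sorted columns, so quantile normalised by the authors. Each of its 20 columns correlated best with its own array (r 0.997 to 1, column medians 5.14 to 5.15, so not centred).

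The intensities were corrected for background by neqc in limma 3.58.1 (R 4.3.3), which estimated the negative controls through the detection p-values. An offset of 16, quantile normalisation and log2 followed. Of 45281 probes, 34885 had 1 symbol in the platform annotation, 18 several and 10378 were not listed there. Probes with a detection p under 0.01 on at least 5 arrays were kept (18683), and the probe with the highest mean stood for its gene, which left 12921 features, 10278 of them with a symbol. Of the 38 tested members, 13 had more than 1 kept probe. The linear model held a mean for each group over all 20 arrays (16 residual degrees of freedom), with eBayes and Benjamini-Hochberg adjustment over all features. Every adjusted p of a gene is from limma's moderated test. The model was tested on simulated data with known changes.

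The labels number the mice within each group but name no litter or surgery day, so p-values measure the spread between these samples. The closest arrays, male MI 1 and 2, had a median absolute difference of 0.123 (log2), and each array counts as 1 mouse. Raw median intensity per array ran from 31.4 to 39.2, and the number of arrays limits the precision. Promoter windows are RefSeq's on GRCm38.p6.

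The members, role groups, lists and markers were chosen with earlier results of these data known. All 20 values are given for the member of each role group with the smallest p in either sex and for members that fell or passed in neither. From each further list, up to 2 genes with the smallest p per comparison are named. Other genes named beside a count, Ezh2 by array, and the promoters shown were chosen after their values were seen. Alternatives changed background, offset, scaling, filter, probe rule, blocks, chips, weights and arrays.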

Additional observations from a re-analysis of the deposited data

Results flagged for a closer look

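Chance flags about 1 in 20 independent groups. The 152 sets of 5 values used here (38 genes in 4 groups) share the same 20 arrays and are not independent, so this rate is no yardstick for them. Of the 152 sets, 14 held 1 array far from the other 4 of its group (9.21%). Of these, 4 were high values of male MI 3: Mcm5 at 8.96 against 8.39 for the next array, Chaf1b at 6.50 against 5.98, Uhrf1 at 9.03 against 8.35 and E2f1 at 7.52 against 6.83 (normalised log2 intensity). Another 4 were low values of female MI 3: Mcm5 at 7.93 against 8.91, Mcm10 at 6.20 against 6.81, Tk1 at 6.89 against 7.70 and Chaf1b at 5.81 against 6.48. Among sham arrays, female sham 4 was high for Mcm4 (9.15 against 8.51) and Mcm10 (5.28 against 4.86), and female sham 5 was low for Gins3 (4.27 against 4.70). Male sham 3, which lies in chip position F, was low for Mcm6 (6.6 against 7.02) and Rfc4 (5.99 against 6.68), and male sham 5 was high for Ccne2 (4.56 against 4.33), whose probe was detected on 0 of 5 male sham arrays.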

How the results depend on the processing

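Leaving out each array in turn kept the 28 male calls in every case and 31 of the 33 female calls, with Ccne2 and Gins3 lost in some; the number called ran from 31 to 34 in females and from 28 to 30 in males, and the median from 0.86 to 1.041 and from 0.7073 to 0.8225. Under 16 other settings the 28 male calls were kept wherever the gene was tested and so were 30 female calls, with Gins4 lost as well; these settings leave out the fits within a chip, of which that within chip 2 called 1 gene in males. The female median moved by more than the spread between arrays (0.169) to 0.7452 without background correction, 0.7402 with the authors' log2 matrix and 0.6096 with an offset of 50, and the male median to 0.5331 with an offset of 50. The count of genes that differed between females and males after MI was 1, but 0 with the chip as a fixed block, 13 with array weights, and 0 to 6 when 1 array was left out; the cause was not tested. Rpa2 in females changed sign with the mean of all probes (-0.08849), the chip as a fixed block (-0.07091), within chip 3 (-0.1322) and without position F arrays (-0.06948), as did Rfc4 within chip 2 in males (-0.03909) and within chip 3 in females (-0.01817). Leaving out 1 array gave Rpa2 in females between -0.01922 and 0.1215. Array weights added Pcna, Rpa2 and Dut (lower) in males and Pold1 in females. The replicate block called 33 genes in females and 28 in males, as without it, and changed no other count over the 38 genes. The numbers follow chip and position order, so the labels give this block no meaning. Deviations of same-numbered arrays correlated between -0.0556 and 0.319 in females and between -0.325 and 0.139 in males, and the numbers were not taken as pairs. Over all 12921 genes, calls numbered 4231 in females (2240 within chip 3) and 2373 in males (8 within chip 2, 4150 with array weights). Calls of the interaction were 0 (31 with array weights, 0 of them among the 38). Females against males gave 18 calls after MI (4 with the chip as a fixed block, 11 without female MI 2 or female MI 4, 635 without female MI 3, 1981 with array weights) and 14 after sham (7 with the chip as a fixed block or with the 2 groups alone, 6 within chip 2, 32 with array weights, and 9 without male sham 1 or female sham 4, 26 without female sham 2 and 45 without male sham 4). Testing every kept probe and asking for detection on at least 5 sham arrays were chosen after seeing the data; the first changed no call of the 38 and the second left 32 genes, 27 called in females and 24 in males. Where a probe was detected on 0 of 5 arrays of a group (Ccne1 in sham hearts of both sexes, Rrm2 and Ccne2 in male sham hearts), signal over background limits the difference to a bound.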
